A study of Homo sapiens with 18 samples.

Results

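The members described here are the ATAC-seq regions of human chromosome 14 that start at position 70000000 (70 Mb, GRCh38) or later, together with the genes that start in the same span. ATAC-seq measures open chromatin by the insertion of a transposase into accessible DNA, and its signal is given as tags piled up over a called peak. Overlapping peaks of all 9 ATAC-seq libraries were merged, which gave 85549 regions, and 1206 of them lay in the span. The RNA-seq tables held 28395 genes, 600 of them in the span. The span was selected on the measured difference between G-K562 and V-K562 in both assays, which was high there, so every value of G-K562 against V-K562 below is a description without a test and supports nothing by itself.

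K562 is a human cell line grown from a chronic myelogenous leukemia, with erythroid features. BASP1 is a transcriptional corepressor that carries the fatty acid myristate on its N-terminus. The control line, V-K562, was transfected with vector alone. B-K562 expressed wtBASP1. G-K562 expressed BASP1-G2A, in which the glycine that takes the myristate is replaced by alanine. Each of the 3 lines was 1 stably transfected pool kept under G-418, and 3 cultures of each were measured by RNA-seq and 3 by ATAC-seq. A difference between lines can therefore not be told apart from a difference between pools. BASP1 was at 5 to 7 normalised read counts in V-K562, between 6189 and 6849 in B-K562, and between 8124 and 12538 in G-K562. All 12 erythroid markers examined were at 618 or more in every library, and of the B cell markers MS4A1 was at 0 throughout and CD79A at 8 or less. The RNA-seq values of a library summed to between 32074895 and 33229588, and the ATAC-seq libraries had between 47111 and 55570 peaks. No library was identical to another.

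Chromosome 14 has almost all of its genes on its long arm, and the span is the distal part of that arm. It holds genes of broad use, such as the chaperone HSP90AA1, the kinase AKT1 and the transcription factor YY1. It also holds the imprinted DLK1 to DIO3 genes, in which only the copy from 1 parent is normally active, the serpin A genes of protease inhibitors and the immunoglobulin heavy chain genes, which B cells rearrange.

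Sequence is shown for the regions that mark the edge of the shift in ATAC-seq and for some of those that differed most, each as 200 bases around the summit that were free of annotated exons. All are on the plus strand of GRCh38, and each is placed beside its values further on. Capitals mark matches on either strand to 5 short motifs, AGATAA (bound by GATA factors), TGANTCA (AP-1), CCATNTT (YY1), GGGCGG (the GC box) and CACGTG (the E-box), none of which contains another. The first 2 lines are the last region before the ATAC-seq step and the first after it, the next 2 are 1 of the 3 highest and 1 of the 3 lowest regions in G-K562 with a peak in all 9 libraries, and the last 2 are the highest and the lowest called region in B-K562.
DPF3 intron, chr14:72869693-72869892: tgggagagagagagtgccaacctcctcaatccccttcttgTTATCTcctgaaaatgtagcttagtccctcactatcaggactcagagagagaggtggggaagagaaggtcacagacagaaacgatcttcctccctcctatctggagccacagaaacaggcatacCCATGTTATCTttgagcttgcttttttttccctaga
DPF3 upstream, chr14:72894141-72894340: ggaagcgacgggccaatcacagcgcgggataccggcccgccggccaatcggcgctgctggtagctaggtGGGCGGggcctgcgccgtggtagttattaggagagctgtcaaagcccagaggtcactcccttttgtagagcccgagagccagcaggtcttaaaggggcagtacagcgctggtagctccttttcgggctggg
PPP4R4 upstream, chr14:94174013-94174212: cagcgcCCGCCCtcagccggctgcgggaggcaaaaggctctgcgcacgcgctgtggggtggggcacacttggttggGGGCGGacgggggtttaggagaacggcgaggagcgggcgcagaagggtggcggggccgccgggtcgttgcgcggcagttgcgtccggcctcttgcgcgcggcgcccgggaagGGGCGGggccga
VRK1 intron, chr14:96917501-96917700: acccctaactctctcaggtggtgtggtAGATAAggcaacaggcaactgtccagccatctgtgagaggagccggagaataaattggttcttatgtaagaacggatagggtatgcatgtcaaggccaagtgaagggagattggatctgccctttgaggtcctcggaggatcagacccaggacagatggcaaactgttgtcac
AHSA1 and VIPAS39 upstream, chr14:77458461-77458660: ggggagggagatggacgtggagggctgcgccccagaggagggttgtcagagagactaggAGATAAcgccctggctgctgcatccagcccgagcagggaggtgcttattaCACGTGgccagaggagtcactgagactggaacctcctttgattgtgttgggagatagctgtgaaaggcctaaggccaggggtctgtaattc
ADCK1 intron, chr14:77892413-77892612: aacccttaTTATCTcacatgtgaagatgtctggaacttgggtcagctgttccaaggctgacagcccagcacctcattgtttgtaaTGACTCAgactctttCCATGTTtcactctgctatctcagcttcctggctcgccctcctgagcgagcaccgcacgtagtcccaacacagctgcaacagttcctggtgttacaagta

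In the 300 bases around the summit, 27.9% of the 1206 members held a GC box against 24.2% of all other regions. AGATAA was in 19.8% of the members and 23.4% of the others, TGANTCA in 17.1% and 20.2%, CCATNTT in 15.3% and 17.3%, and CACGTG in 6.63% and 6.31%. The members had a median GC content of 53.6%, against 51.2% in the other regions and 50.4% in the rest of chromosome 14, and their median length of 373 bp was close to the 371 bp elsewhere. Of the members, 10.8% lay over the start site of a protein-coding gene, 11.1% within 5 kb upstream, 35.9% in introns and 38.1% outside protein-coding genes, and the shares elsewhere were 10.4%, 12.2%, 34.4% and 39.3%. All these shares lay within a few percentage points of those of the other regions.

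Genes of the span were higher in G-K562 than in V-K562 along nearly its whole length, and in B-K562 their median was not shifted. Values were compared as the difference of group means on the scale log2(value + 1), which understates the change of genes with few reads. A gene was used when 3 or more of the 6 libraries compared reached a value of 10, which 201 of the 600 genes did for G-K562. Of these, 174 were higher in G-K562, with a median difference of 0.62 and quartiles of 0.33 and 0.96. The median was -0.024 over the 269 genes of the rest of chromosome 14 and 0.0027 over all 15271 genes. Taken culture by culture, the median of the span was 0.61 ± 0.016 (SD, n = 3) above the mean of V-K562 in G-K562 and 0.0083 ± 0.0046 (SD, n = 3) above it in B-K562. In 158 genes all 3 G-K562 libraries lay above all 3 V-K562 libraries, 78.6% of the genes of the span beside 35.2% of all genes. The reverse held for 14 genes (6.97%, beside 34.9% of all genes), and the groups overlapped in 29. In a mixed culture, fewer cells of a kind and less RNA per cell cannot be told apart. Reads and tags are counted per library, so output per copy of a gene and the number of its copies cannot be told apart either.

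The members of the ATAC-seq regions followed the same direction. Summit pileups were scaled between libraries, values under 17 were set to 17, and a region was used when 3 or more of the 6 libraries had called it, as held for 766 of the 1206 members for G-K562. Of these, 565 were higher in G-K562, with a median difference of 0.50 and quartiles of -0.020 and 0.90. The median was 0.018 over the 690 regions of the rest of chromosome 14 and -0.075 over all 54213 regions. By culture the median of the span was 0.48 ± 0.014 (SD, n = 3) in G-K562 and 0.040 ± 0.022 (SD, n = 3) in B-K562. All 3 G-K562 libraries lay above all 3 V-K562 libraries in 386 members, 50.4% beside 22.1% of all regions. In 93 members all 3 lay below, 12.1% beside 30.4% of all regions.

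**Figure D1:**
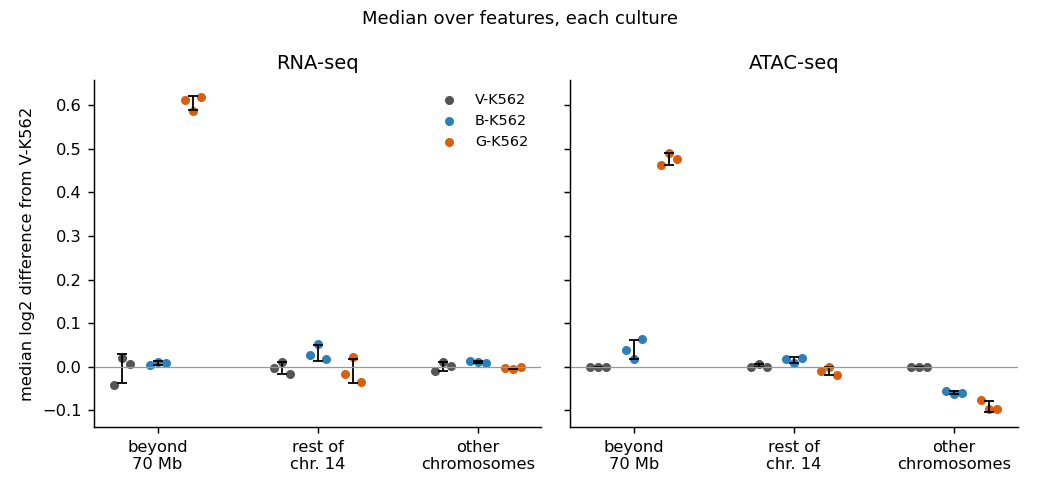
Median log2 difference from the mean of V-K562 over the features of chromosome 14 beyond 70 Mb, of the rest of chromosome 14 and of the other chromosomes, for RNA-seq (left) and ATAC-seq (right). Each point is 1 culture, with the mean and SD of the 3 as bars, and each V-K562 culture is set against the mean of the other V-K562 cultures. In both assays the 3 G-K562 cultures are raised in the span and near 0 elsewhere, with medians in the span of 0.61 ± 0.016 in RNA-seq and 0.48 ± 0.014 in ATAC-seq.

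The shift was seen in the peak lists before any scaling. The V-K562 libraries had 650, 683 and 670 peaks in the span, which were 1.21%, 1.23% and 1.21% of their peaks. The B-K562 libraries had 651, 619 and 652, or 1.33%, 1.31% and 1.37%. The G-K562 libraries had 817, 798 and 818, or 1.60%, 1.65% and 1.64%, and did not overlap with either of the other lines. The summed peak length in the span was 237336 to 251914 bp in V-K562, between 247534 and 252245 bp in B-K562, and 317293 to 319498 bp in G-K562. The median summit pileup of the span's peaks was 35 to 35.5 tags in V-K562, where the median of all peaks was 41, and 45 to 47 tags in G-K562, where it was 46 to 47. Of the members, 359 had a peak in all 9 libraries, and 290 of these were higher in G-K562, with a median of 0.67. Among such regions, 236 of 364 were higher in the rest of chromosome 14 (median 0.14) and 15016 of 26984 over all regions (median 0.080). Another 46 members (3.81%) had a peak in all 3 G-K562 libraries and in none of V-K562 or B-K562, against 1.64% in the rest of chromosome 14 and 1.75% of all regions. A peak in the 3 V-K562 libraries alone was found in 7 members (0.580%), against 0.910% in the rest of chromosome 14 and 1.78% of all regions. In RNA-seq, genes of the span took 0.883% to 0.904% of a V-K562 library's values, 0.973% to 0.979% of a B-K562 library's, and 1.42% to 1.44% of a G-K562 library's. The B-K562 libraries thus lay above those of V-K562 in this share and in the share of peaks. Their numbers of peaks in the span overlapped.

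The place where the shift begins was located by the single split of the ordered features that left the least summed deviation from the medians of its sides. In RNA-seq the split fell between SRSF5, which ends at 69772005, and COX16, which starts at 70325081. The median difference in G-K562 was -0.024 before and 0.62 after it. SRSF5, a splicing factor, was at 7226, 6671 and 6513 normalised read counts in V-K562 and at 7110, 8123 and 7260 in G-K562, so that the groups overlapped at a log2 difference of 0.14 ± 0.066 (SE). COX16, which takes part in the assembly of cytochrome oxidase, was at 308, 282 and 279 in V-K562 and at 355, 447 and 383 in G-K562, with no overlap and a difference of 0.44 ± 0.10 (SE). The next gene, SYNJ2BP, which encodes a protein of the outer mitochondrial membrane, was at 527, 540 and 619 against 1063, 946 and 1182, a difference of 0.92 ± 0.095 (SE). Before SRSF5, the zinc transporter gene SLC39A9 differed by 0.054 and SUSD6 by 0.10, both with overlapping groups. With each G-K562 library alone the split fell at 70.33, 70.33 and 70.37 Mb. The boundary of the rule at 70 Mb falls into the same gap between SRSF5 and COX16. Among the genes high enough to be used, those just inside and just outside it are therefore these same genes. Within this gap RNA-seq cannot place the start more closely.

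In ATAC-seq the split fell later, between a region of a DPF3 intron that ends at 72870019 and a region upstream of DPF3 that starts at 72893961, with medians of 0.018 and 0.52 on its sides. The intronic region had summit pileups of 23, 21 and 23 tags in V-K562, 49, 53 and 43 in B-K562 and no called peak in G-K562. The upstream region had 92, 67 and 92 in V-K562, 142, 137 and 134 in B-K562 and 230, 244 and 265 in G-K562. Between 70 Mb and this split, the 7 regions at or upstream of start sites were all higher in G-K562, with a median of 0.88, near the 0.89 of the 201 such regions after the split. The other 38 regions of this stretch had a median of -0.22 and 16 of them were higher, against -0.29 for the 101 such regions in the 10 Mb before 70 Mb and 0.30 for the 520 after the split. Start site regions of those preceding 10 Mb had a median of 0.36. The 9 genes of the same stretch had a median RNA difference of 0.82. In this stretch the start site regions and the genes were already raised, and the other regions were not raised as a group.

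Regions at the boundary of the rule varied as well. The start site region of SRSF5, just outside it at 69766797 to 69767343, had 146, 149 and 131 tags in V-K562 and 250, 185 and 241 in G-K562, a difference of 0.33 ± 0.12 (SE). Another region outside it, upstream of SRSF5 at 69767590 to 69768048, had 38, 58 and 47 tags in V-K562 and 110, 98 and 125 in G-K562. Its difference of 0.90 ± 0.17 (SE) was as large as those of many members. The region at 69818732 to 69819004, closer to the boundary, differed by -0.18. The first members, in SLC8A3 at 70045953 to 70046380 and 70073970 to 70074294, differed by 0.44 and 0.26 and had a peak in only part of the V-K562 libraries. A member between genes at 70213902 to 70214297 differed by -0.087. The start site region of COX16 at 70359383 to 70359918 had 51, 45 and 42 tags in V-K562, 50, 42 and 41 in B-K562 and 95, 66 and 92 in G-K562. A region between genes at 70237702 to 70238286 went the other way, with 126, 135 and 115 tags in V-K562 and 81, 67 and 53 in G-K562. The next regions, also between genes, were raised. That at 70254593 to 70255021 had 53, 55 and 51 tags in G-K562 and, in V-K562, a peak of 24 tags in replicate 3 only. That at 70255163 to 70255636 had 59, 48 and 51 tags in G-K562 and no called peak in the other lines. It passed the minimum through G-K562 alone, so that its difference is set by the floor.

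**Figure D2:**
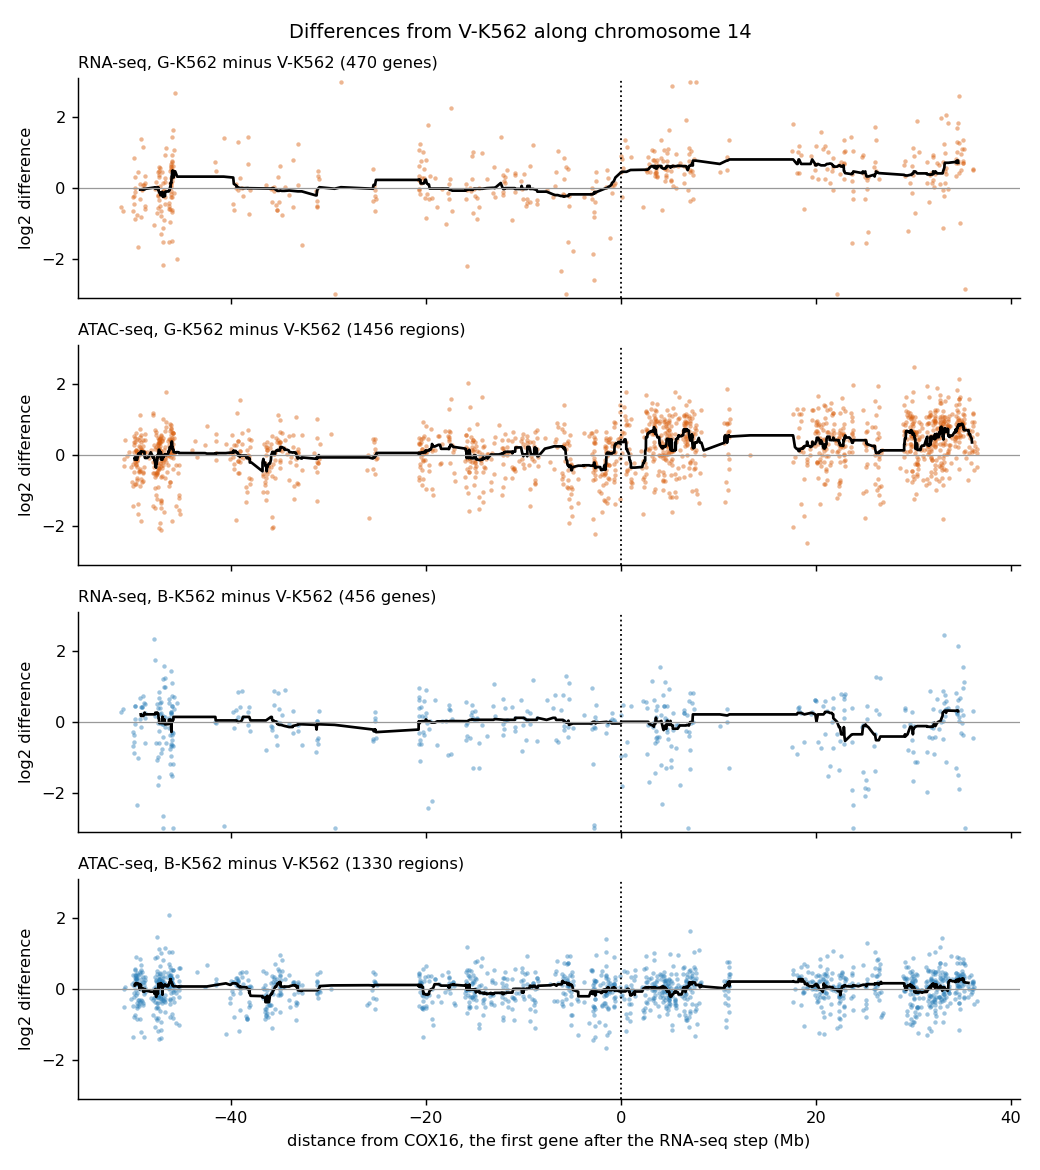
Difference of each line from V-K562 (log2) along chromosome 14, plotted against the distance in Mb from COX16, the first gene after the RNA-seq step (dotted line). Points are genes or regions, the black line is the running median of 31 of them, and 13 genes beyond 3 in size are drawn at the limit. In G-K562 the RNA-seq median moves from -0.024 to 0.62 at the dotted line and the ATAC-seq median settles higher after about 3 Mb, and in B-K562 neither moves at these places.

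Beyond the start, the shift ran to the end of the chromosome. In windows of 5 Mb from 70 Mb on, the RNA-seq median in G-K562 was 0.58, 0.62, 0.69, 0.91, 0.62, 0.38, 0.64 and 0.71, with 4 to 47 genes a window. In B-K562 the same windows lay between -0.13 and 0.26. The ATAC-seq medians of these windows in G-K562 lay between 0.18 (85 to 90 Mb, 28 regions) and 0.71 (105 to 110 Mb, 57 regions), and those in B-K562 between 0.028 and 0.22. In the 5 Mb before 70 Mb, the medians in G-K562 were -0.16 over 22 genes and -0.28 over 101 regions.

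Across the genome, 273 windows of 10 Mb had at least 15 features in each comparison, 3 of them in the span. The window of the span from 80 to 90 Mb had too few genes and was left out. In G-K562 the 3 windows of the span that were used were the only ones with a median of at least 0.4 in both assays. With a lower limit of 0.2, 10 windows reached it in both assays, and only 3 of these were in the span, while 34 windows were at or below -0.2. A smaller joint rise was thus found on other chromosomes too. The highest RNA-seq median outside the span was 0.52 and the highest ATAC-seq median 0.41, against up to 0.71 and 0.58 in the span. At the other end, 15 windows were at or below -0.4 in both assays, on chromosomes 1, 4, 6, 10, 12, 18 and X. In B-K562 no window was at 0.4 or above in both assays and 2 were at or below -0.4. The comparisons with V-K562 share the V-K562 libraries. When every chromosome was split in the same way, the rise on chromosome 14 in G-K562 was the second in size in both assays, after chromosome X in RNA-seq (0.72 against 0.64) and the end of chromosome 8 in ATAC-seq (0.58 against 0.50), and the step on X led up from a median of -0.71 to 0.0067. In B-K562 the split of chromosome 14 fell near its end. It lay at 103.52 Mb in RNA-seq, with medians of 0.0084 before and 0.33 after it (33 genes). In ATAC-seq it lay at 103.55 Mb, with medians of 0.042 and 0.21 (89 regions after it). These rises ranked 6 and 11 in size among the chromosomes.

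**Figure D3:**
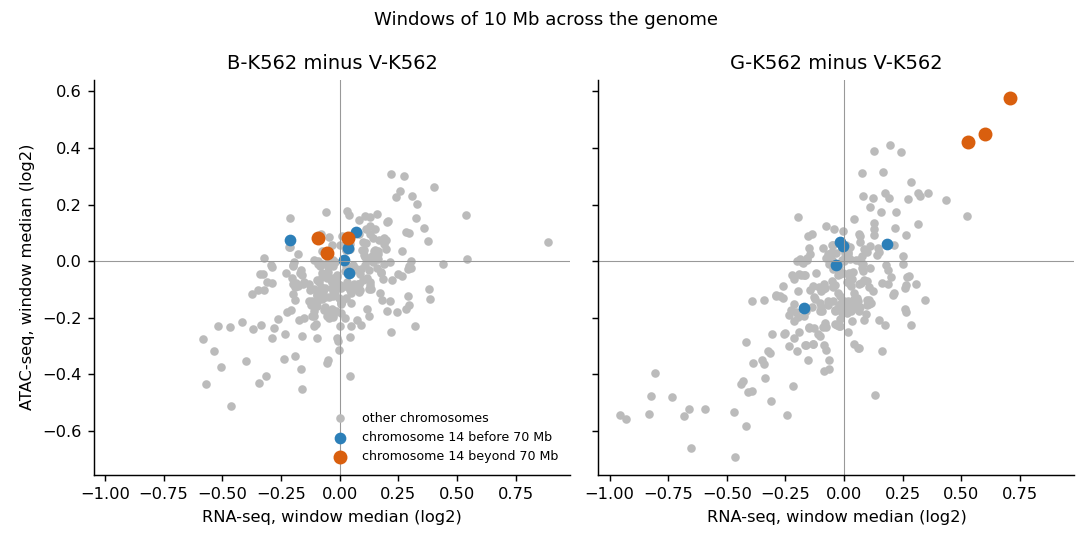
Median log2 difference from V-K562 in windows of 10 Mb, RNA-seq on the horizontal and ATAC-seq on the vertical axis, for B-K562 (left) and G-K562 (right), 273 windows each. In G-K562 the 3 windows of chromosome 14 beyond 70 Mb with enough features (orange) lie in the upper right corner, at 0.4 or more in both assays, and in B-K562 they lie among the others. The window from 80 to 90 Mb had too few genes and is not drawn.

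How far a region was raised depended on its place. In the span, regions over start sites had a median difference in G-K562 of 0.92, those upstream 0.82, those in coding exons 0.66, in UTR exons 0.31, in introns 0.16 and those outside protein-coding genes 0.43. Elsewhere in the genome the same classes had medians of 0.34, 0.18, 0.024, -0.15, -0.27 and -0.23, so that start sites were raised and introns lowered in G-K562 outside the span too. In each class the span lay above the rest of the genome by 0.43 to 0.66. GC content moved with this. With the members split into 3 groups of like size by GC content, the median in the lowest group (33.9% to 51.4%) was 0.071, against -0.41 elsewhere at the same GC content. In the middle group it was 0.44 against -0.043, and in the highest (61.1% to 86.3%) 0.86 against 0.34. Its part in the differences among members was not tested. Split in the same way by level, the weakest group of members had a median of 0.14 and the strongest 0.87, and elsewhere -0.23 and 0.19. In RNA-seq the 3 groups of genes by level, from weakest to strongest, had medians of 0.64, 0.58 and 0.63. Of the 67 genes in each, 49, 64 and 61 were higher in G-K562. The medians were thus alike, but fewer of the weakly expressed genes were higher.

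**Figure D4:**
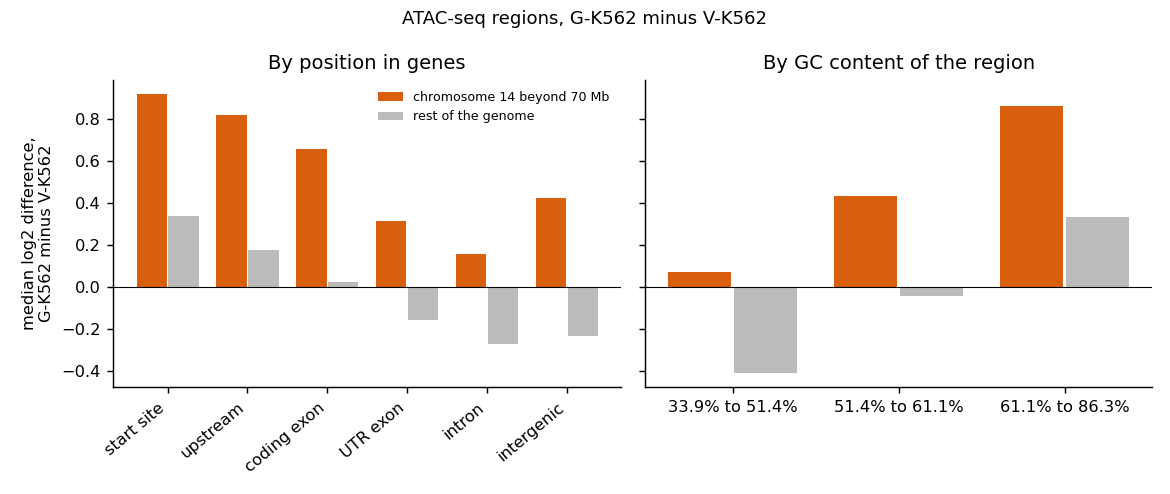
Median log2 difference in summit pileup between G-K562 and V-K562 for regions of chromosome 14 beyond 70 Mb (orange) and of the rest of the genome (grey), by position in protein-coding genes (left) and by 3 groups of GC content (right). The span lies above the rest of the genome in every class, from 0.16 against -0.27 in introns to 0.92 against 0.34 at start sites.

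For 149 genes a region at the start could be set beside the RNA value. Of these, 147 had a higher ATAC-seq value in G-K562, 138 a higher RNA value and 137 both, and the medians were 0.93 for ATAC-seq and 0.63 for RNA-seq. Start site regions elsewhere in the genome were raised too, with a median of 0.34, and the like counts outside the span were not made. Across these genes the sizes of the differences in both assays were hardly related (Spearman's rho = 0.096, Pearson's r = 0.20, n = 149 genes of the same libraries). Several genes whose RNA was not higher had a raised start region. MARK3, a polarity kinase, was at 3262, 3461 and 3305 normalised read counts in V-K562 and at 3230, 3237 and 3200 in G-K562, while its start region had 95, 115 and 98 tags against 275, 319 and 320. DYNC1H1, the heavy chain of cytoplasmic dynein, was at 11817, 15007 and 16088 in V-K562 and at 11784, 9346 and 11380 in G-K562, and its start region had 71, 72 and 75 tags against 142, 194 and 182. DPF3, a subunit of the BAF chromatin remodeler, was at 122, 144 and 140 in V-K562 and at 92, 101 and 87 in G-K562, and its start region is the one that opens the ATAC-seq step.

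The genes of the span are given by role from here on, with the V-K562 and G-K562 values from 1 table and the B-K562 values from the other. The V-K562 values of the tables differ by a factor of 1.02, and tests of B-K562 used its own table. Of the 18 transcription and chromatin factors used, 16 were higher in G-K562 (median 0.57), and in B-K562 8 rose and 6 fell by adjusted p, beside 38.6% and 37.2% of all genes tested. YY1, a factor that both activates and represses, was at 2665, 2752 and 2697 in V-K562, at 3339, 3186 and 3161 in B-K562 and at 4266, 4333 and 4034 in G-K562. The lines did not overlap, and YY1 rose in B-K562 by 0.28 ± 0.046 (SE, limma adjusted p = 8.31e-05). MTA1, a subunit of the NuRD deacetylase complex, was at 2957, 3013 and 3102, then 3346, 3502 and 3473, and 5120, 4990 and 4760 in the same order. SNW1, a splicing and transcription coregulator, differed by 0.37 in G-K562 and by -3.4e-05 in B-K562, and the corepressor RCOR1 by 0.39 and -0.41. IRF2BPL, a zinc finger protein, was among the 5 highest in G-K562, at 774, 869 and 940 in V-K562, 745, 697 and 700 in B-K562 and 3576, 2917 and 3299 in G-K562. FOS, a component of AP-1, was also among them but varied, with 641, 564 and 535 in V-K562 and 1557, 3993 and 959 in G-K562. FOXN3, a forkhead repressor, was among the 5 lowest, at 373, 417 and 387 in V-K562 and 265, 249 and 267 in G-K562.

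All 14 genes of DNA repair, RNA processing and the cell cycle were higher in G-K562, with a median of 0.50. In B-K562, 12 of them rose by adjusted p and none fell, beside 38.6% and 37.2% of all genes, without a 2-fold change in any. PAPOLA, the poly(A) polymerase, was at 6385, 6331 and 6026 in V-K562, at 7969, 7696 and 7926 in B-K562 and at 8792, 8830 and 8359 in G-K562. XRCC3, which acts in homologous recombination, was at 1133, 1166 and 1193, then 1716, 1779 and 1667, and 1803, 1636 and 1787, so that B-K562 and G-K562 overlapped. RBM25, a splicing regulator, differed from V-K562 by 0.54 in G-K562 and 0.39 in B-K562, and CCNK, the cyclin of CDK12 and CDK13, by 0.33 and 0.34. The values of CCNK may hold reads of CCDC85C and SETD3, whose exons overlap it, since the strand used in counting is not given in the sources used here.

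Of 14 genes of protein folding, degradation and translation, 12 were higher in G-K562 (median 0.53), and in B-K562 8 rose and 5 fell by adjusted p, beside the same 38.6% and 37.2% of all genes. HSP90AA1, the inducible cytosolic HSP90, was at 42497, 47263 and 43200 in V-K562, at 79826, 81313 and 80259 in B-K562 and at 54816, 59248 and 56035 in G-K562, so that it was highest in B-K562. EIF5, a translation initiation factor, was at 7853, 8580 and 7900, then 14741, 14859 and 14251, and 13288, 13749 and 13642. WARS1, the tryptophanyl-tRNA synthetase, went in opposite directions, from 25583, 26058 and 25986 in V-K562 to 8136, 7959 and 8101 in B-K562 and 57795, 55414 and 58043 in G-K562. Its fall in B-K562 was -1.66 ± 0.043 (SE, limma adjusted p = 2.42e-12). TMED10, a cargo receptor of the secretory pathway, differed by 1.11 in G-K562 and -0.49 in B-K562.

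Of 21 signalling genes, 17 were higher in G-K562 (median 0.64), and in B-K562 8 of 20 rose and 7 fell by adjusted p, where 38.6% and 37.2% of all genes did. AKT1, a kinase of the PI3K pathway, was at 4470, 4383 and 4214 in V-K562, at 5774, 5805 and 5819 in B-K562 and at 9224, 8821 and 8704 in G-K562. CDC42BPB, a kinase downstream of CDC42, differed by 0.65 in G-K562 and -0.21 in B-K562, and PPP2R5C, a regulatory subunit of protein phosphatase 2A, by 0.15 and -0.86. JAG2, a Notch ligand, was among the lowest in G-K562, at 1765, 1801 and 1794 in V-K562, 2772, 2832 and 2816 in B-K562 and 1012, 850 and 868 in G-K562. Its start region had 48, 30 and 43 tags in V-K562 and 61, 82 and 71 in G-K562. A pair of genes outside these lists were among the highest. GPR132, a G protein-coupled receptor, was at 76, 67 and 84 in V-K562, 12, 25 and 23 in B-K562 and 469, 368 and 576 in G-K562, and its start region at 105065293 to 105065763 had the highest difference among regions with a peak in all 9 libraries, with 43, 36 and 33 tags against 243, 167 and 228. TNFAIP2, a gene induced by tumor necrosis factor, was at 2939, 3170 and 3396 in V-K562 and at 12349, 11442 and 13759 in G-K562, against a difference of 0.016 in B-K562.

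Of 19 genes of metabolism and mitochondria, 15 were higher in G-K562 (median 0.44), and in B-K562 6 rose and 11 fell by adjusted p, against 38.6% and 37.2% of all genes. SPTLC2, a subunit of serine palmitoyltransferase, was at 2330, 2796 and 2666 in V-K562, 2513, 2486 and 2518 in B-K562 and 5824, 4761 and 5678 in G-K562. DLST, a subunit of the 2-oxoglutarate dehydrogenase complex, whose exons overlap those of RPS6KL1, differed by 0.20 in G-K562. CKB, the brain form of creatine kinase, was at 9184, 9182 and 8603 in V-K562, at 12867, 12930 and 12589 in B-K562 and at 8295, 7843 and 7047 in G-K562, where it was lower. ATP5MJ, a small subunit of ATP synthase, differed by -0.028 in G-K562, with overlapping groups.

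**Figure D5:**
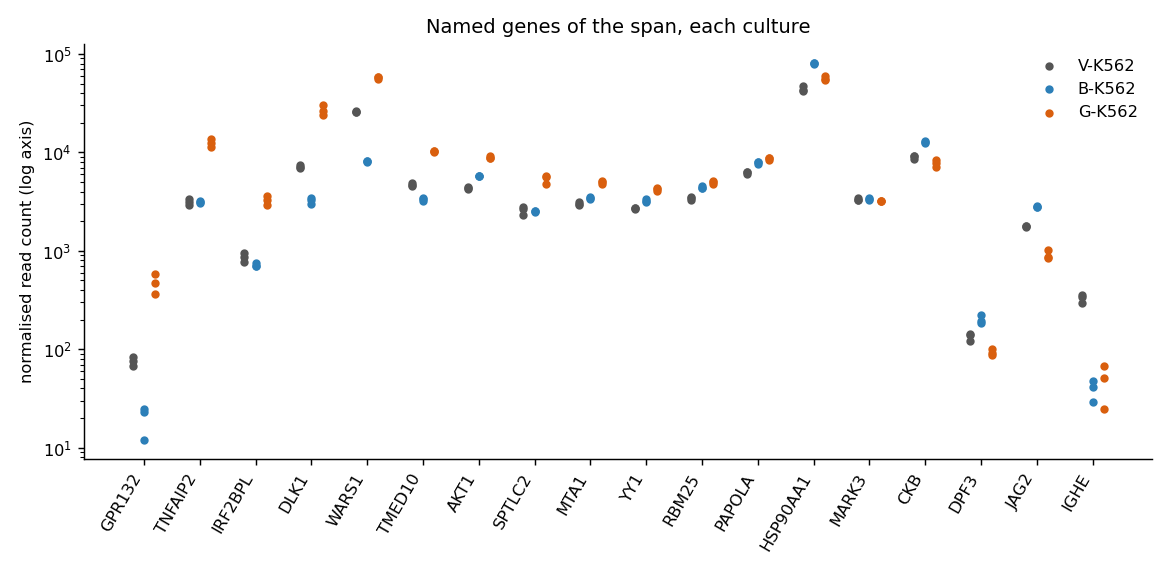
Normalised read counts (log axis) of 18 named genes of chromosome 14 beyond 70 Mb in the 3 cultures of each line. G-K562 lies above V-K562 for the genes from GPR132 to HSP90AA1 and not for MARK3, CKB, DPF3, JAG2 and IGHE, and B-K562 lies on either side.

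Of the imprinted genes, only DLK1 and RTL1 were high enough for the comparison. DLK1, a membrane protein of the Notch ligand type, was at 7004, 7032 and 7442 in V-K562, at 3407, 3303 and 3011 in B-K562 and at 30049, 23941 and 26474 in G-K562. Its 3 groups did not overlap, and it fell in B-K562 by 1.12 on the log2 scale (SE 0.053, limma adjusted p = 4.89e-10). The only called peak at its start was in 1 G-K562 library, at 22 tags. RTL1 was at 9, 8 and 15 in V-K562 and at 29, 17 and 21 in G-K562, and its exons overlap those of several miRNA genes. None of the 10 serpin A genes passed the minimum, 6 were at 0 in every library and the highest value was 12. Of 159 immunoglobulin heavy chain segments 128 were at 0 in every library. The highest of them was IGHE, at 352, 336 and 297 in V-K562, 29, 48 and 41 in B-K562 and 51, 68 and 25 in G-K562, and the constant genes of this locus are so alike that the assignment of reads among them is uncertain. TCL1A, a coactivator of AKT, was at 20, 17 and 18 in V-K562 and at 7, 16 and 3 in G-K562, and its neighbour TCL6 differed by 0.33. Of the 76 miRNA genes of the span 70 were at 0 throughout, and the highest value was 5.

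By size alone, with no test, 47 genes of the span were at least 2-fold higher in G-K562 (23.4%, beside 8.85% of all genes) and 7 at least 2-fold lower (3.48%, beside 10.4%). Of the regions, 140 were higher by as much (18.3%, beside 3.31% of all regions) and 29 lower (3.79%, beside 12.8%). RIN3, a guanine nucleotide exchange factor for RAB5, named after its values were seen, had the lowest difference in G-K562, with 133, 111 and 130 in V-K562 and 14, 12 and 10 in G-K562, and was at 84, 99 and 105 in B-K562. Among the lowest differences of regions with a peak in all 9 libraries were those at 88024412 to 88025091, with 94, 107 and 92 tags in V-K562, 139, 168 and 133 in B-K562 and 35, 34 and 20 in G-K562, and in a VRK1 intron at 96917293 to 96918053, with 100, 114 and 83, then 177, 219 and 144, and 54, 51 and 37. The highest differences besides the start of GPR132 were upstream of PPP4R4 at 94173756 to 94174541, from 20, 16 and 18 tags to 99, 74 and 106, and upstream of MAP3K9 at 70809210 to 70810124, from 59, 75 and 91 to 310, 305 and 352.

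The span was not selected on B-K562, and its difference from V-K562 asks what wtBASP1 expression went with in the same genes. A feature was called when it changed by 2-fold or more with a limma adjusted p no higher than 0.05. Of 193 genes tested, 9 were called higher (4.66%, beside 6.46% of all genes tested) and 33 lower (17.1%, beside 14.1%). By adjusted p alone 82 rose (42.5%, beside 38.6% of all genes) and 74 fell (38.3%, beside 37.2%). Of 660 regions tested, 8 were called higher (1.21%, beside 1.57% of all regions) and 17 lower (2.58%, beside 5.98%), and by adjusted p alone 56 rose (8.48%, beside 9.27%) and 59 fell (8.94%, beside 16.2%). The median difference was 0.0057 over the genes and 0.059 over the regions, against 0.0072 and -0.049 over all genes and regions. The counts of called regions moved with single libraries, to 13 and 16 higher without B-K562 replicate 1 or V-K562 replicate 2, and to 9 and 10 lower without B-K562 replicate 2 or V-K562 replicate 1.

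TRMT61A, which encodes the catalytic subunit of a tRNA methyltransferase, had the largest rise of the span in B-K562. It was at 321, 348 and 288 in V-K562 and at 1743, 1769 and 1789 in B-K562, a difference of 2.47 ± 0.072 (SE, limma adjusted p = 7.93e-12), and in the other table at 326, 353 and 294 in V-K562 and 759, 797 and 744 in G-K562. Its start region had 48, 41 and 65 tags in V-K562, 38, 47 and 57 in B-K562 and 125, 137 and 111 in G-K562, so that B-K562 overlapped V-K562 there. The other largest rises were in genes with few reads, namely PLD4 (exons shared with AHNAK2), the vertnin gene VRTN and the divergent transcripts PAPOLA-DT and MTA1-DT. PAPOLA-DT was at 30, 25 and 22 in V-K562, 58, 62 and 68 in B-K562 and 66, 67 and 69 in G-K562. VRTN, at 8, 5 and 1 in V-K562 and 14, 11 and 14 in B-K562, lost its call without V-K562 replicate 3, where the difference was 0.92, and with a pseudocount of 8, where it was 0.77.

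The largest falls in B-K562 included 2 interferon-inducible genes that lie side by side. IFI27 was at 243, 98 and 94 in V-K562, at 14, 12 and 13 in B-K562 and at 106, 134 and 139 in G-K562, and IFI27L2 at 168, 162 and 190, then 41, 37 and 24, and 141, 151 and 138. Both fell in B-K562, with differences of -3.24 and -2.35, and overlapped with V-K562 or lay below it in G-K562. The peak at the start of IFI27, at 19, 18 and 19 tags in V-K562, was called in no B-K562 library and had 35, 32 and 52 tags in G-K562. TMEM63C, which encodes a membrane protein, fell from 13, 15 and 17 to 1, 1 and 0. LTBP2, a binding protein of latent TGF-beta, fell from 91, 112 and 128 to 32, 17 and 17. IGHE fell as well, with a difference of -3.03.

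Among the regions, the largest rise in B-K562 lay upstream of AHSA1 and VIPAS39 at 77458402 to 77458707, with 65, 56 and 52 tags in B-K562 and no called peak in the other lines. It passed the minimum through B-K562 alone, so that its difference is set by the floor of 17 tags. AHSA1, a cochaperone that activates HSP90 and named here for this region after its values were seen, rose in B-K562 from 2328, 2155 and 1964 to 3829, 3750 and 3865. A region outside protein-coding genes at 103309100 to 103309608 rose by 1.45, from no peak, 24 and 26 tags in V-K562 to 69, 54 and 79 in B-K562. Another, at 95601674 to 95602124, had 44, 41 and 52 tags in B-K562 and no called peak in V-K562 or G-K562, so that its difference too is set by the floor. The largest falls were in an ADCK1 intron at 77892318 to 77893134, with 69, 39 and 41 tags in V-K562 and 27, 16 and no peak in B-K562, between genes at 101710035 to 101710549, with 88, 71 and 80 against no peak, 47 and 49, and in a DGLUCY intron at 91202264 to 91202739, with 67, 56 and 67 against 37, 21 and 29. A B-K562 library without a peak was set to the floor here as well. Without B-K562 replicate 1, which had none at 101710035, the difference there was -0.83. The fall at ADCK1 passed at an adjusted p of 0.0137, but not without B-K562 replicate 2 or 3 (0.060 in both), and that at 101710035 kept its call when B-K562 replicate 3 was left out and lost it when any other library was.

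In the 191 genes used in both comparisons, 88 were higher than V-K562 in both lines and 76 were higher in G-K562 and lower in B-K562, at any size. A further 7 were lower in G-K562 and higher in B-K562, and 20 lower in both. The lines were not tested against each other here.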

How the data were processed

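RNA-seq reads had been aligned by the authors to GRCh38 using STAR, freed of duplicates, counted on RefSeq genes with Subread and normalized with DESeq2. The deposited values are scores, namely these read counts divided by size factors and rounded, so a count model was not used. Columns with the authors' fold changes and p-values were not used. For ATAC-seq, the authors aligned reads with BWA, sampled libraries to equal numbers of tags and ran MACS2 on each library, and the deposited signal is the tag pileup at each summit or its mean over the interval. The depth behind a value is its number of tags, and genes or regions near the minimum are imprecise.

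The members, gene lists and named genes were chosen with earlier results of these data known. Named were, in each list, up to 4 genes with the highest V-K562 values, YY1, the 5 highest and 5 lowest differences in G-K562 (mean value of at least 100) and among called genes in B-K562, the 3 genes on each side of 70 Mb and of the located start, and regions likewise, apart from an item that is not reported here. Of 123 genes listed by role, 118 lay in the span and the others were dropped. Comparisons used limma 3.58.1 in R 4.3.3 with a trend, on log2(value + 1) or on log2 summit pileup scaled by a trimmed mean (30% of log ratios, 5% of means), with Benjamini-Hochberg adjustment over all features. The p-values measure the spread between cultures of 1 pool. Positions are 1-based, in GRCh38, and positions in genes are from protein-coding transcripts of GENCODE. Splits had at least 20 features on each side. Alternatives were other filters, floors, scalings and pseudocounts, leaving out each library, and a replicate block. The scripts were tested on simulated data.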

Additional observations from a re-analysis of the deposited data

How the results depend on the processing

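The median of the span in G-K562 stayed above 0 in every alternative run. For the genes it was 0.58 with at least 10 in all 6 libraries, 0.46 with no filter on low values, 0.58 with a pseudocount of 8 and 0.59 to 0.62 without single libraries. For the regions it was 0.66 with the floor at the lowest summit pileup, 0.42 from the mean pileup, 0.77 with no scaling (where the median of all regions was 0.19), 0.63 with a peak in all 6 libraries, 0.44 with scaling within bins of GC content and 0.46 to 0.52 without single libraries. The median of B-K562 over the genes was 0.034 with at least 10 in all 6 libraries (0.047 over all genes), -0.13 with no filter (-0.055 over all genes), -0.043 when rescaled outside chromosome 14 (-0.041 over all genes) and -0.014 to 0.019 without single libraries. Over the regions it was 0.094 with the lower floor, 0.17 with no scaling, 0.097 with a peak in all 6 libraries, 0.030 within bins of GC content and 0.043 to 0.065 without single libraries. By adjusted p alone, 82 genes were called higher and 74 lower in B-K562, and 56 and 59 regions. Without single libraries the counts were 8 to 10 and 32 to 37 genes and 8 to 16 and 9 to 16 regions. Called regions numbered 19 higher and 35 lower with the lower floor, 5 and 4 from the mean pileup, 19 and 9 with no scaling, 2 and 8 with a peak in all 6 libraries, and 12 and 10 within bins of GC content. The shares of all regions called were not worked out under these settings or without single libraries. These counts therefore do not show whether the span moved apart from other regions. With no scaling the median of all regions in B-K562 moved too, from -0.049 to 0.061. The cause of these changes was not tested. The step stayed at 70.33 Mb in RNA-seq and at 72.89 to 72.91 Mb in ATAC-seq without single libraries, and neither moved with least squares, a stricter filter or a second split. Of 180 values of named genes and regions in B-K562 under the alternatives, 11 lost their call and none changed sign. Replicate numbers were not taken as pairs. Same-numbered deviations correlated at -0.097 to 0.15 in RNA-seq and at 0.014 to 0.080 in ATAC-seq. Deviations with different numbers correlated at -0.175 to 0.22 in RNA-seq and at -0.054 to 0.030 in ATAC-seq. Correlations this weak do not settle whether the cultures were paired. With the replicate number as a block (replicate block), 9 genes were called higher and 33 lower and 10 regions higher and 17 lower, with medians of 0.62 and 0.0057 for genes and 0.50 and 0.059 for regions in G-K562 and B-K562. Depth limits regions near 17 tags, since a library without a peak is not shown to have had none.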
